A study of Mus musculus with 4 samples.

Results

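The spots described here were those richest in RNA of 3 genes of the deep medulla in 4 mouse kidney sections, 2 normal and 2 ischemic. They were selected on Slc14a2, which encodes the urea transporters of the inner medullary collecting duct and the thin descending limb, Akr1b3, the aldose reductase that makes the osmolyte sorbitol, and Aqp2, the vasopressin-regulated water channel of principal cells. For each tissue spot, counts were pooled with those of its up to 6 neighbours on the array, and the 5% of spots of each section with the highest share of these 3 genes in all unique molecular identifiers (UMIs, 1 per captured RNA molecule) were taken. The rule selected 131 spots of normal section 1, 134 of normal section 2, 120 of ischemic section 1 and 131 of ischemic section 2, or 516 of 10312 tissue spots. They are called member spots below. A spot is a small disc of tissue that can hold several cells of different types.

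The inner medulla is the deepest zone of the kidney and ends in the papilla, which lies in the renal pelvis. Its collecting ducts, thin limbs, interstitial cells and vasa recta live in a hypertonic and poorly oxygenated milieu, in which cells accumulate organic osmolytes and keep high levels of chaperones. Water is reabsorbed there through aquaporins under the control of vasopressin, and urea is recycled through urea transporters. Ischemia followed by reperfusion injures tubules most in the outer medulla, where the straight proximal tubule and the thick ascending limb lie, and the injured tubule switches on genes such as Havcr1 (KIM-1) and Lcn2 (NGAL).

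All sections came from left kidneys of male wild-type C57BL/6J mice aged 7 to 8 weeks, with no transgene in either group. Normal control kidneys were compared with kidneys from mice whose renal pedicles had both been clamped for 30 min and that were killed 24 h later, and 10 µm frozen sections of both were placed on 1 Visium slide, in 4 capture areas. The study describes 2 mice per condition with 2 technical replicates each, but the labels do not say which mouse a section came from, so that p-values measure the spread between sections, which may be technical. The comparison asks how the member spots, as opposed to the rest of the section, differed after ischemia.

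The 4 sections held 25957128 to 44528078 UMIs each, and the member spots 684174 to 968782 UMIs, which was 2.02% and 2.47% of all UMIs for the normal sections and 3.12% and 3.48% for the ischemic ones (section 1 before section 2 here and below). A member spot was shallower than the rest of its section, with medians of 5242 and 3587 UMIs in the normal sections against 16696 and 8878.5 UMIs in the other spots, and 7710.5 and 6284 UMIs in the ischemic sections against 12103 and 9098. Barcodes belong to fixed positions of the array, and any pair of sections shared 1833 to 2137 of them for that reason. Normal section 1 stood apart in its member spots by blood RNA, as given with the marker lists below.

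The member spots did not cover the same tissue in both conditions. In normal section 1 all 131 spots formed 1 connected group, and in normal section 2 the largest group held 117 of 134 spots (87.3%). In ischemic sections 1 and 2 the member spots fell into 13 and 14 groups, of which the largest held 61 of 120 spots (50.8%) and 92 of 131 spots (70.2%). The median member spot lay 1 step from the tissue edge in both normal sections, 5 steps in ischemic section 1 and 2 steps in ischemic section 2. The normal groups bordered an empty space beside the tissue, whereas the ischemic members outside the largest group ran as a chain of small patches across the section, as the maps show.

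**Figure D1:**
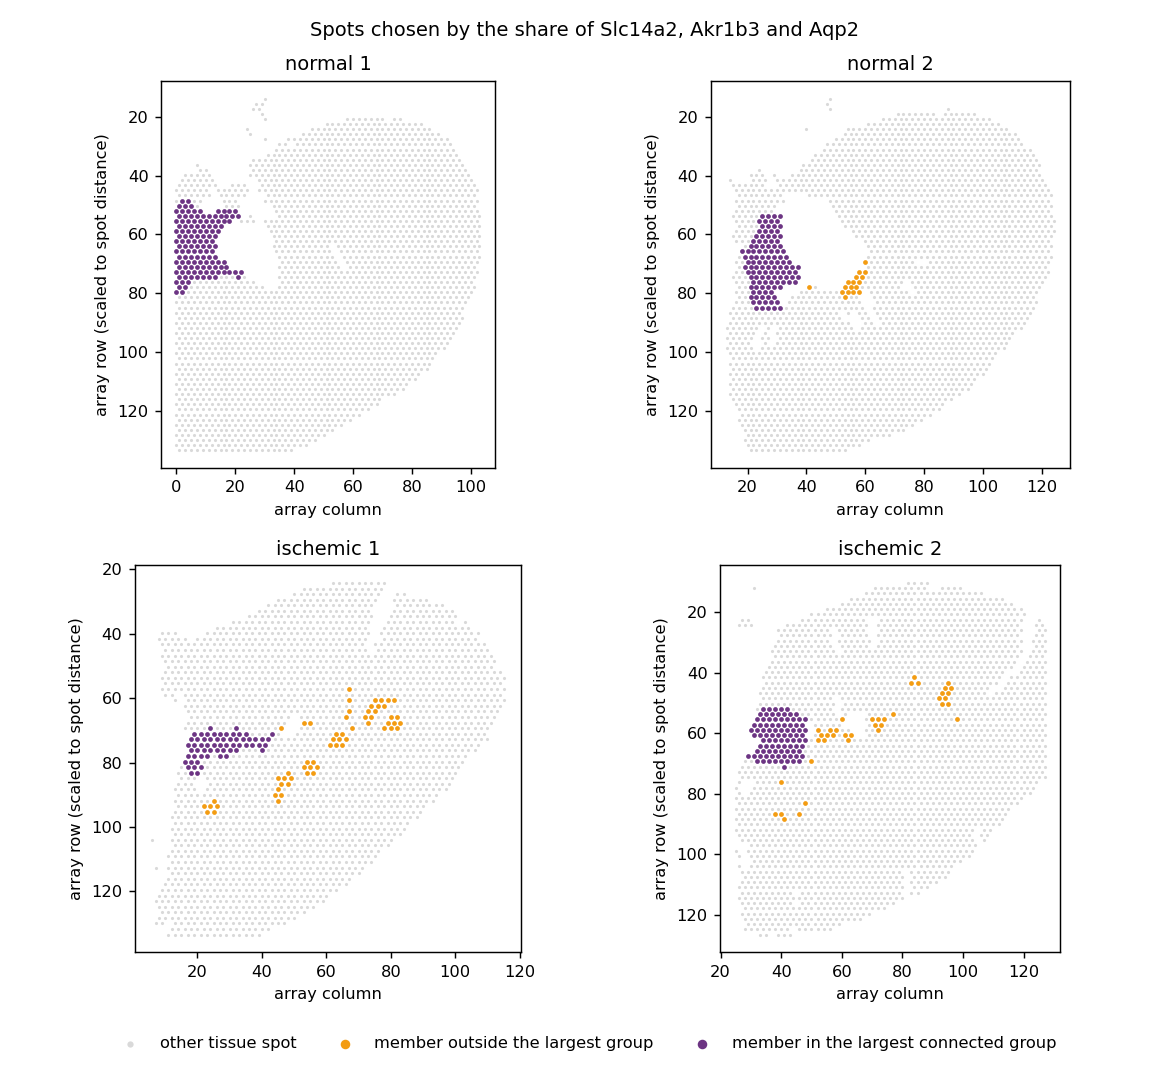
Position of member spots in the 4 sections, by array column (x) and array row scaled to spot distance (y). Each point is a tissue spot, with members of the largest connected group in purple, other members in orange and the remaining tissue in grey. All 131 members of normal section 1 are in 1 group, and 61 of 120 are in the largest group of ischemic section 1.

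The genes of the selection rule differed in their part of the score, and since they chose the spots their values are given as a description with no test. The pooled share of the 3 genes had a median over member spots of 1.24% and 1.12% in the normal and of 0.251% and 0.378% in the ischemic sections. At the limit of the selection, the lowest member and the highest other spot had shares of 0.421% and 0.410% in normal section 1, 0.537% and 0.535% in normal section 2, 0.1979% and 0.1978% in ischemic section 1, and 0.258% and 0.257% in ischemic section 2. In CPM (counts scaled to the same total in every sum of member spots, with no other correction), Slc14a2 was at 176 and 87.7 in the normal and 1688 and 962 in the ischemic sections. Akr1b3 was at 4973 and 3797 CPM in the normal and 224 and 694 CPM in the ischemic sections, and Aqp2 at 6718 and 6446 against 1043 and 2973 CPM. Slc14a2 supplied 1.48% and 0.849% of the score in the normal sections, but 57.1% in ischemic section 1 and 20.8% in ischemic section 2. In the normal sections the spots were thus chosen almost wholly by Akr1b3 and Aqp2. Most Slc14a2 RNA of each section lay outside the members, which held 33.6% and 5.65% of it in the normal and 28.6% and 18.0% in the ischemic sections. For Akr1b3 these shares were 56.6% and 45.7% against 6.36% and 18.2%, and for Aqp2 47.8% and 43.2% against 13.2% and 28.2%.

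The label of inner medulla was therefore checked against genes the rule did not use. The 8 other genes of the inner medulla and collecting duct summed to 2646 and 4524 CPM in the normal and to 1012 and 1747 CPM in the ischemic members. The other spots of all 4 sections held 282 to 433 CPM, so that the sum was higher in the members of each section. Fxyd4 made up most of it, at 1917 and 3391 CPM in the normal and 612 and 1096 CPM in the ischemic members. Hsd11b2 was lower in the normal members than in the rest of their sections, at 7.78 and 55.5 against 53.9 and 74.4 CPM. Scnn1g was lower in normal section 1, at 8.90 against 10.5 CPM, and both genes exceeded the rest in the ischemic sections. The thick ascending limb is the segment just above the inner medulla. Its 4 markers summed to 806 and 1020 CPM in the normal and to 6956 and 3633 CPM in the ischemic members, where Umod alone held 6468 and 3338 CPM. Cldn10 of this list did not rise, at 301 and 684 CPM in the normal and 236 and 165 CPM in the ischemic members. By Slc12a1 and Umod, 30 and 15 ischemic members were also among the top 5% of their section, against 0 in both normal sections. Urothelial genes of the pelvis showed the opposite, with 3955 and 4502 CPM in the normal and 358 and 739 CPM in the ischemic members. Adipocyte genes summed to 2877 and 1187 CPM in the normal members and to 0 and 2.21 CPM in the ischemic members, and smooth muscle genes to 966 and 817 against 397 and 292 CPM. Hemoglobin and other erythrocyte genes reached 28243 CPM in normal section 1, but 2629 CPM in normal section 2 and 1061 and 666 CPM in the ischemic sections.

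The leukocyte lists differed in how members stood to the rest of their section. The 6 neutrophil markers, 2 of them at 0 in all members, summed to 6.67 and 2.92 CPM in the normal and 51.6 and 48.7 CPM in the ischemic members, where the rest of the ischemic sections held 181 and 182 CPM. Macrophage and monocyte genes were at 499 and 634 CPM in the normal and 349 and 201 CPM in the ischemic members, where the rest held 191 and 273 CPM and 229 and 228 CPM. T cell genes were at 27.8 and 14.6 against 6.19 and 1.11 CPM, the last of which is 1 count, with 10.3 and 21.1 against 2.43 and 2.83 CPM in the rest. B cell genes were at 58.9 and 46.8 against 8.26 and 8.85 CPM, above the rest of each section, which held 8.39 and 15.3 against 1.73 and 1.60 CPM. Cd79b made up most of the normal B cell sums, at 42.3 and 35.1 CPM, and Ms4a1 had no count in any member. Endothelial genes were closer, with 863 and 897 CPM in the normal and 674 and 594 CPM in the ischemic members, and fibroblast genes overlapped, with 493 and 857 against 610 and 526 CPM. Podocyte genes stood at 61.2 and 77.5 against 102 and 99.5 CPM, intercalated cell genes at 82.3 and 216 against 316 and 382 CPM, and distal convoluted tubule genes at 75.6 and 19.0 against 9.29 and 11.1 CPM. Genes of the cortical proximal tubule were at 547 and 703 CPM in the normal and 72.3 and 83.0 CPM in the ischemic members, and those of the outer stripe at 329 and 376 against 229 and 295 CPM.

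**Figure D2:**
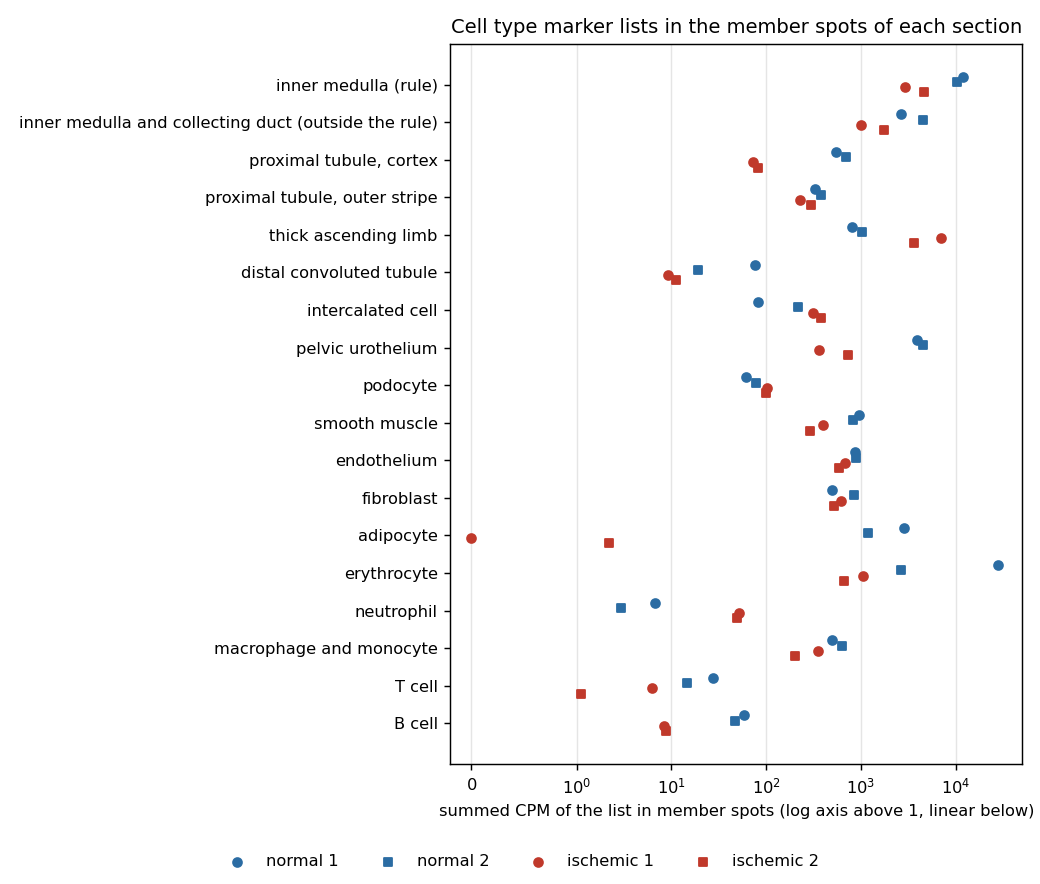
Summed CPM of each cell type marker list in the member spots (x, logarithmic above 1 and linear below), with 1 point per section, blue for normal and red for ischemic, circles for section 1 and squares for section 2. The sum of thick ascending limb genes is higher in both ischemic sections (6956 and 3633 CPM against 806 and 1020), while those of pelvic urothelium and adipocyte genes are higher in both normal sections.

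The ischemic selections were also uneven within a section. The urothelial gene Psca was at 541 CPM in the largest connected group of ischemic section 1 and 3.88 CPM in its other members, and at 662 and 28.3 CPM in those of ischemic section 2. Umod, the uromodulin made by the thick ascending limb, was at 1794 CPM in the largest group and 7445 CPM in the other members of ischemic section 2, but at 5960 and 6913 CPM in those of ischemic section 1, against 449 and 276 CPM in all members of the normal sections. The spots are therefore called by the rule, and which differences between the conditions come from a different mix of cells and which from a change within a cell cannot be told apart in summed spots. The parts of the marker lists in the results below were not tested. Fewer cells of a type and less RNA per cell cannot be told apart either. The main counts were repeated on the largest group of each section and on spots chosen by the 8 genes outside the rule, both alternatives chosen after seeing the data.

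Counts of the member spots were summed per section and compared by edgeR's quasi-likelihood test, with p-values adjusted by Benjamini-Hochberg over all genes and a threshold of 0.05. Values per section in what follows are normalized CPM, that is, CPM corrected by the TMM method of edgeR, and fold changes are ischemic over normal. Of 9665 genes tested outside the rule, 2102 (21.7%) passed, 837 (8.66%) higher and 1265 (13.1%) lower in the ischemic members. The counts by gene list below are to be read beside these shares, and no list was tested as a set. The largest connected groups gave 1635 genes of 8307, and the spots chosen by the 8 other genes 1915 of 9624. Without mitochondrial and hemoglobin genes, 2125 of 9649 genes passed. A fit that leaves out a section has 1 section in that condition, and the counts of such fits are given in the closing section. The groups did not overlap for 5892 genes (61.0%). The standard deviation (SD) of the log2 difference over genes was 0.519 between the normal and 0.494 between the ischemic sections, against 0.934 to 1.06 between a normal and an ischemic section.

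Of the tested genes of tubular injury, 10 rose and 2 fell in the member spots. Lcn2, which encodes the secreted iron-siderophore binding protein NGAL, stood at 60.3 and 45.7 normalized CPM in the normal and at 10151 and 13790 in the ischemic members. Both ischemic sections were thus far above both normal ones, with a log2 fold change of 7.81 ± 0.41 (SE, n = 2 sections per condition, edgeR adjusted p = 3.9e-08). Havcr1, the phosphatidylserine receptor KIM-1 of injured proximal tubule, had no count in either normal section and 88.5 and 108 normalized CPM in the ischemic ones, at least 52.1-fold higher if 3 counts are allowed over both normal sections (edgeR adjusted p = 1.1e-06). In the other spots of the ischemic sections Havcr1 averaged 1545 normalized CPM in the joint fit of members and rest. Spp1, the secreted phosphoprotein osteopontin, rose from 5071 and 3714 to 57609 and 44059 normalized CPM, a log2 fold change of 3.53 ± 0.39 (SE, n = 2, edgeR adjusted p = 1.8e-05). Clu, the extracellular chaperone clusterin, rose from 544 and 376 to 6042 and 7600, or by 3.89 ± 0.33 on the log2 scale.

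Of the 21 genes of this list, 19 were tested and 7 did not pass, with a median log2 fold change of 0.83 beside 0.00 over all genes tested. Besides those above, Tnfrsf12a, the receptor of the cytokine TWEAK, Sox4, Anxa2, Anxa3 and the fibrinogen chains Fga and Fgg were higher. Tnfrsf12a went from 21.3 and 15.7 to 273 and 199 normalized CPM. The keratin Krt18 and the calcium-binding S100a6 were lower. Krt18 stood at 1148 and 849 in the normal and 266 and 618 in the ischemic members, and S100a6 at 7653 and 6100 against 3344 and 4154 normalized CPM. Krt18 did not pass without normal section 1 (-0.94) or ischemic section 1 (-0.68), S100a6 not without ischemic section 1 (-0.71) or 2 (-1.02), and neither passed in the largest connected groups, where 9 of 17 injury genes were higher. Krt20, an injury keratin that rose by 9.63 ± 0.29 (log2, SE) in the other spots, was at 16.3 and 5.72 in the normal and 12.3 and 24.1 normalized CPM in the ischemic members, and its difference of 0.67 ± 0.52 did not pass (edgeR adjusted p = 0.40).

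The 10 largest rises, among genes past the threshold with a mean of at least 50 normalized CPM in the higher condition and no overlap, were Sprr2f, Havcr1, Hesx1, Vgf, Lcn2, Mt2, Slc34a2, Mt1, Aldh1a2 and Eprn. Sprr2f, a small proline-rich protein of epithelia, had no count in the normal members and 114 and 166 normalized CPM in the ischemic ones, at least 74.1-fold higher. Vgf, a secreted neuropeptide precursor, went from no count to 63.8 and 52.6, and the homeobox gene Hesx1 from no count to 96.7 and 49.3, at least 31.0-fold and 39.2-fold higher. Slc34a2, a sodium-phosphate cotransporter, had 1 count in the normal and 121 in the ischemic members, a ratio of 102 with an exact 95% counting interval of 18.0 to 4073. Aldh1a2, which makes retinoic acid, was at 2.51 and 0 in the normal and 88.5 and 44.9 normalized CPM in the ischemic members, and since the former rest on 2 counts the ratio of 53.7 had an interval of 14.6 to 448. Eprn was at 1.26 and 4.29 in the normal and 123 and 54.8 normalized CPM in the ischemic members. All 10 genes also rose in the other spots, with log2 fold changes from 1.90 (Eprn) to 10.50 (Vgf).

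Genes of fat, plasma cells and visceral smooth muscle made up most of the 10 largest falls, which were Cfd, Retn, Cox8b, Ccl8, Cidea, Igkc, Actg2, Cidec, Adipoq and Car3. Cfd, the adipokine adipsin, stood at 2803 and 1013 normalized CPM in the normal members and had no count in the ischemic ones, at least 1160-fold lower. Retn (resistin), Cox8b and Cidea, all known from adipose tissue, were also without a count in the ischemic members, as were the chemokine Ccl8 and the smooth muscle actin Actg2, at least 144-fold, 58.7-fold, 48.1-fold, 53.2-fold and 37.9-fold lower in that order. The immunoglobulin light chain Igkc had 420 counts in the normal and 1 in the ischemic members, but its normal values of 38.9 and 556 normalized CPM differed by more than 10 times. Adipoq (adiponectin) had 184 and 1 counts and Cidec 246 and 1. Car3, a carbonic anhydrase abundant in fat, went from 681 and 206 to 2.06 and 3.29 normalized CPM. These falls stand beside the adipocyte and smooth muscle lists above, and of the 10 genes only Ccl8 was above the filter on low counts when spots were chosen by the 8 genes outside the rule. All 10 genes also fell in the other spots, with log2 fold changes from -1.82 (Actg2) to -8.99 (Cfd).

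**Figure D3:**
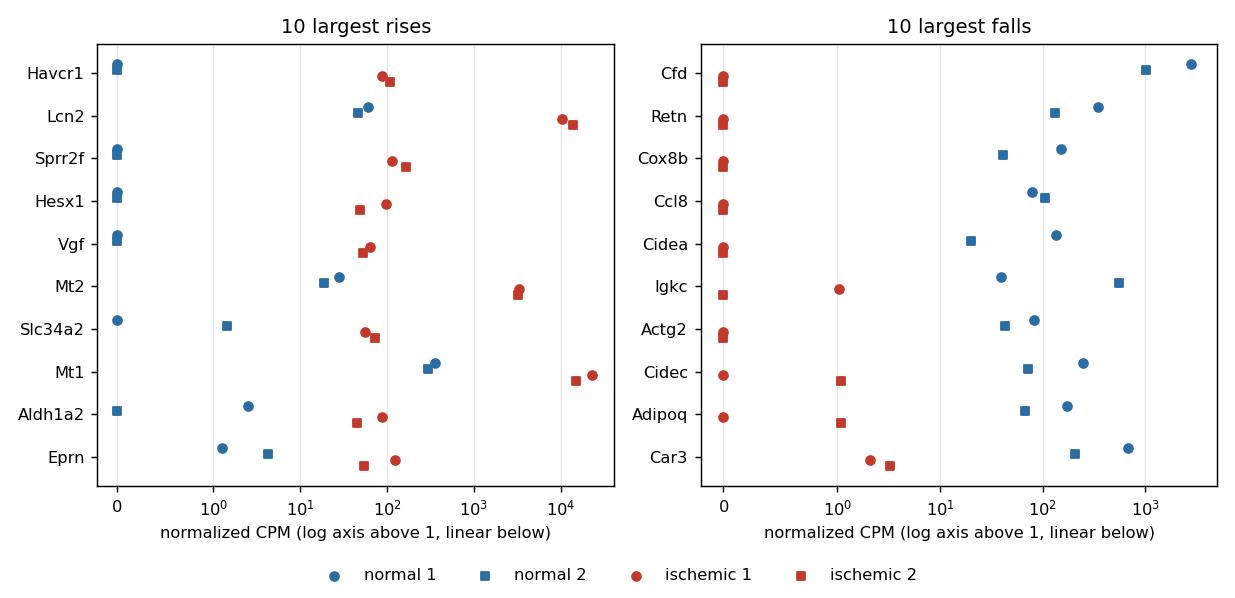
Normalized CPM (x, logarithmic above 1 and linear below) of the 10 genes with the largest rises (left) and the 10 with the largest falls (right) in member spots, with 1 point per section. No ischemic point overlaps a normal point in these genes, which the choice of genes required, and Havcr1, Sprr2f, Hesx1 and Vgf are at 0 in both normal sections.

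The metallothioneins, small cysteine-rich proteins that bind zinc and copper, rose more in the member spots than elsewhere. Mt1 went from 358 and 292 to 22719 and 15060 normalized CPM (log2 fold change 5.86 ± 0.40, SE, edgeR adjusted p = 2.7e-07), and Mt2 from 27.6 and 18.6 to 3302 and 3242 (7.13 ± 0.36). In all other spots the log2 fold changes were 3.88 ± 0.25 and 5.24 ± 0.21, and the difference between members and other spots, tested as an interaction, was 2.03 ± 0.19 for Mt1 and 1.97 ± 0.24 for Mt2 (edgeR adjusted p = 1.3e-09 and 2.6e-07). The members started from lower normal levels. In the joint fit Mt1 averaged 264 (normal) and 15443 (ischemic) normalized CPM in the members, against 928 and 13022 in the other spots. Mt2 averaged 18.8 and 2675 against 59.6 and 2135. The promoters of both are shown because the genes lie side by side on chromosome 8 and moved together. They are RefSeq sequences of GRCm38.p6 from 250 bases before to 50 bases after the gene start, and capitals mark the metal response element, searched as TGCGCNC and TGCACNC on both strands. Mt1 (chr8:94178839-94179138, plus strand) held 3 matches and Mt2 (chr8:94172368-94172667, plus strand) 4, and 25.7% of all 32851 promoters of 300 bases held at least 1.
Mt1: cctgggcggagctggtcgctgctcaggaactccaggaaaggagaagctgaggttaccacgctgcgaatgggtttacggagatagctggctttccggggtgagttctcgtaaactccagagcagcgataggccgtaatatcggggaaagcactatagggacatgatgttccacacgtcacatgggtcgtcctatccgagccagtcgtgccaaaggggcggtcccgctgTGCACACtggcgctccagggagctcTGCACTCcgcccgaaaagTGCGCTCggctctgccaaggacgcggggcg
Mt2: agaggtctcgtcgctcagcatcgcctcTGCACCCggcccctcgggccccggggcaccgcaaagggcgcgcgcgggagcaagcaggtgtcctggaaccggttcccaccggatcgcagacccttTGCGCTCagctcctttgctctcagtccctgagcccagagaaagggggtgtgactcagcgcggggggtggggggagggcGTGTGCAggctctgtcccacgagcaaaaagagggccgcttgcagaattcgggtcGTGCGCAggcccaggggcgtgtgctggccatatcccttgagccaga

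Of the 17 genes of oxidative stress and metal binding, 16 were tested, 8 were higher and 3 lower, with a median log2 fold change of 0.87. The ferritin heavy chain Fth1, which stores iron, rose by 1.33 ± 0.34 on the log2 scale, but without ischemic section 1 its value of 1.01 did not pass. Gclc and Gclm, the subunits of the enzyme that limits glutathione synthesis, rose from 72.8 and 81.5 to 264 and 152 and from 85.4 and 88.6 to 196 and 235 normalized CPM. Txnrd1, Srxn1 and Hmox1, targets of the factor NRF2, were higher as well. Gpx1, Gpx3 and Cat, which remove peroxides, were lower, with Gpx1 at 2746 and 2210 in the normal against 694 and 757 in the ischemic members. The same counts of 8 higher and 3 lower of 16 were found in the largest connected groups, which hold all 131 members of normal section 1. The number of falls varied more between settings. Scores without neighbours or without Aqp2, and members without edge spots, gave 8 higher and 1 lower. With 2.5% of spots 5 of 15 were higher and 1 lower, with the 8 other genes 8 and 2 of 16, and with 10% of spots 8 and 4.

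Of 14 chaperones tested, 6 fell in the member spots. Cryab, the small heat shock protein alpha B-crystallin (chr9:50751325-50756636, GENCODE annotation of GRCm38), stood at 9946 and 8012 normalized CPM in the normal and 1011 and 872 in the ischemic members. Its log2 fold change was -3.25 ± 0.31 (SE, n = 2, edgeR adjusted p = 4.7e-06), whereas it rose by 2.30 ± 0.17 in all other spots. The inducible Hsp70 genes Hspa1a and Hspa1b went from 290 and 376 to 51.4 and 86.5 and from 347 and 489 to 130 and 170 normalized CPM, and since their sequences are nearly the same the split of reads between them is uncertain. Hspb1 (HSP27) went from 1138 and 633 to 399 and 372, but its log2 fold change of -1.20 became -0.72 without normal section 1 and -0.62 with spots chosen by the 8 other genes, and passed in neither. The median over the 14 heat shock and chaperone genes was -0.44. Hsph1 and the Hsp40 protein Dnajb1 were the other genes that fell, and Hspa5, the chaperone BiP of the endoplasmic reticulum, was the one that rose, from 206 and 173 to 418 and 475. Hsp90aa1, Hsp90ab1, Hspa8, Hspd1, Hspe1, Bag3 and Hspb8 did not pass. In the largest groups 5 of 14 were lower and 1 higher, and with spots chosen by the 8 other genes 4 and 2.

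The promoters of a pair of these genes are shown for the heat shock element, searched as GAANNTTC and TTCNNGAA, each its own reverse complement, and marked in capitals. Hspa1b (chr17:34959189-34959488, minus strand) held 1 match and Hspb1 (chr5:135887669-135887968, plus strand) 2, and 15.1% of all promoters held at least 1. A match describes the letters and is no evidence of binding.
Hspa1b: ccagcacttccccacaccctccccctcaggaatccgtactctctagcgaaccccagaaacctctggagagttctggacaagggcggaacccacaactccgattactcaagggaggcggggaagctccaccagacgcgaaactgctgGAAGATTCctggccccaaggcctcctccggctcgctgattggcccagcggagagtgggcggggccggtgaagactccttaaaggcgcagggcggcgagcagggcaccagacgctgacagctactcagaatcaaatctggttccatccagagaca
Hspb1: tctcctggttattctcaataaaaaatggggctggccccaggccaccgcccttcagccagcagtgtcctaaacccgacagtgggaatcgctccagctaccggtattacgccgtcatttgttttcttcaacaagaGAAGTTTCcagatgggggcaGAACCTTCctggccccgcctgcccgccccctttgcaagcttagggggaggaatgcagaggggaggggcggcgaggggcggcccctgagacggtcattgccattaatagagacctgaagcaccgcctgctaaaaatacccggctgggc

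**Figure D4:**
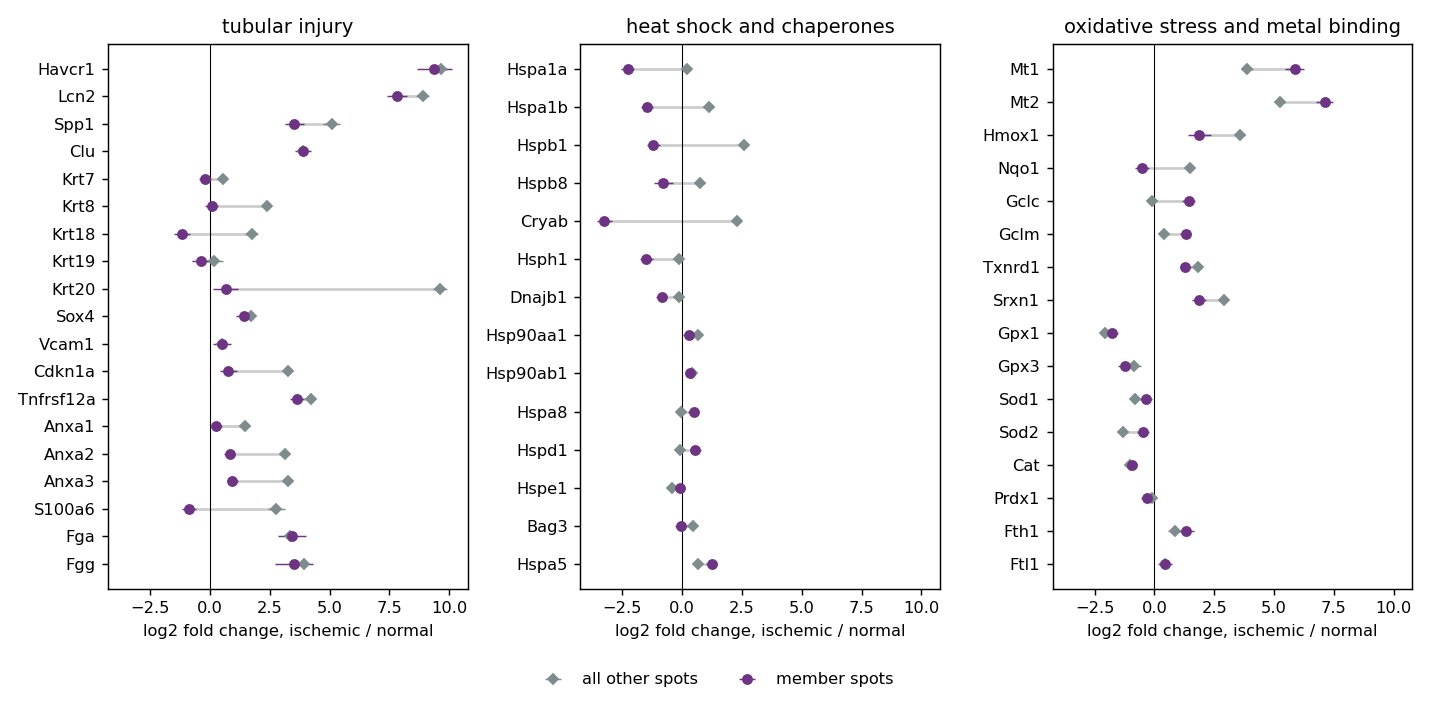
Log2 fold change of ischemic over normal (x) with its standard error, for genes of 3 lists, in member spots (purple circles) and in all other spots (grey diamonds). Cryab is at -3.25 in members and 2.30 in the other spots, Krt20 at 0.67 and 9.63, and Mt1 at 5.86 and 3.88, while the value of Havcr1, with no count in the normal members, depends on the prior count.

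Genes of the osmolyte and tonicity response were lower more often than higher, as were all genes tested (13.1% lower and 8.66% higher). Of 11 genes, 10 were tested, 4 were lower and 1 higher, with a median log2 fold change of -0.76. Sord, sorbitol dehydrogenase, which turns sorbitol into fructose, fell from 203 and 154 to 30.9 and 16.4 normalized CPM (-2.91 ± 0.30, edgeR adjusted p = 8.8e-06). It was more abundant in the other spots and lower after ischemia there too, at 1051 and 951 against 170 and 154 CPM without TMM correction. The serum and glucocorticoid regulated kinase Sgk1 fell from 644 and 526 to 133 and 281, and Hsph1 and Hspa1b, also of this list, fell as given. Slc5a3, the myo-inositol transporter, rose from 65.3 and 48.6 to 328 and 217 (2.25 ± 0.27, edgeR adjusted p = 3.7e-05). Nfat5, the transcription factor that drives these genes under hypertonicity, was at 95.4 and 176 against 92.6 and 124 and did not pass (edgeR adjusted p = 0.46).

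Transport genes of the collecting duct split in both directions. Of 14 genes outside the rule, 13 were tested, 3 were lower and 3 higher, with a median of 0.20. Avpr2, the vasopressin receptor V2 of principal cells, fell from 248.6 and 251.5 to 39.1 and 70.1 normalized CPM (-2.20 ± 0.27, edgeR adjusted p = 4.1e-05), and Fxyd4, the sodium pump regulator of the collecting duct, from 2165 and 3316 to 610 and 1085 (-1.69 ± 0.32). The urea transporter Slc14a1 of vasa recta and red cells was the third that fell. The water channels Aqp3 and Aqp4 stood at 162 and 336 against 96.7 and 211 and at 227 and 184 against 64.8 and 160, and neither passed (edgeR adjusted p = 0.18 and 0.060). The potassium channel Kcnj1 (ROMK), which the thick ascending limb also uses, rose from 12.6 and 5.72 to 116 and 70.1, and the sodium channel subunit Scnn1a from 15.1 and 12.9 to 45.3 and 60.2. Kcnj1 moved with the thick limb markers Slc12a1, Umod and Ptger3, but not with Cldn10, which did not rise. With spots chosen by the 8 other genes the log2 fold change of Kcnj1 was -0.16. With those spots 1 of 13 genes was higher and 3 were lower. Fxyd4, Aqp3, Aqp4, Hsd11b2, Scnn1g and Slc14a1 of this list are among the 8 genes that chose the spots, so these counts are no independent check.

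Among 10 transcription factors of principal cells, 9 were tested, 1 was higher and 2 lower, beside 8.66% and 13.1% of all genes tested. Tfcp2l1, which is also known from intercalated cells, rose from 6.28 and 31.4 to 94.6 and 86.5 normalized CPM. Gata2 and Elf5 fell, from 75.3 and 60.0 to 19.5 and 27.4 and from 90.4 and 54.3 to 7.20 and 36.1, and Elf5 did not pass without normal section 1 (-1.34). DESeq2 called 1 of the 9 genes, as lower, and 0 as higher. Elf3, Ehf and Hoxb7, the most abundant of the list, did not pass, with log2 fold changes of 0.07 ± 0.31, 0.06 ± 0.25 and -0.51 ± 0.23.

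Of 9 genes of the thin limbs of the loop of Henle, 3 were lower and 1 higher, beside 13.1% and 8.66% of all genes. Among those that fell, Bsnd (barttin), a chloride channel subunit, went from 126 and 217 to 14.4 and 38.3 normalized CPM, and the claudin Cldn8 from 276 and 326 to 61.7 and 125. Bst1 rose from 30.1 and 85.8 to 178 and 244. The water channel Aqp1 of the thin descending limb was at 390 and 809 against 416 and 696 and did not pass, nor did the claudin Cldn4.

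The prostaglandins of the medulla, made by interstitial and collecting duct cells, act on the EP receptors. Of 12 genes of their synthesis and signalling, 10 were tested, 2 were lower and 2 higher. Ptges, the inducible prostaglandin E synthase, fell from 308 and 163 to 25.7 and 55.9 normalized CPM (-2.54 ± 0.35, edgeR adjusted p = 1.2e-04), and the receptor Ptger1 (EP1) from 172 and 222 to 13.4 and 31.8 (-3.13 ± 0.32). Ptger3 (EP3), which the thick ascending limb also uses, rose from 7.53 and 4.29 to 44.2 and 17.5, and Ptger4 rose as well. Ptger3 did not pass without normal section 2 (2.03) or ischemic section 1 (1.54), and with spots chosen by the 8 other genes its log2 fold change was -0.29.

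Of 20 cytokine, chemokine and acute phase genes, 11 passed the filter on low counts, of which 7 rose and 1 fell. Timp1, the inhibitor of metalloproteinases, rose from 11.3 and 7.15 to 340 and 234 normalized CPM (4.92 ± 0.34, edgeR adjusted p = 2.8e-07), and Socs3, the feedback inhibitor of STAT3 signalling, from 6.28 and 7.15 to 138 and 111. Il34, a ligand of the CSF1 receptor, rose from 7.53 and 15.7 to 130 and 101. Lif had no count in the normal members and 22.6 and 20.8 normalized CPM in the ischemic ones, at least 11.6-fold higher. Cxcl10 and Cx3cl1 also rose, and Cx3cl1 did not pass without normal section 1 (0.85) or ischemic section 1 (0.75). Complement C3 fell from 124 and 75.7 to 18.5 and 14.2.

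Immediate early genes moved both ways. Of 16, 13 were tested, 3 were higher and 4 lower, beside 8.66% and 13.1% of all genes tested. Ier2, Junb, Btg2 and Zfp36 fell, with Ier2 at 280 and 386 in the normal and 107 and 116 in the ischemic members. The fall of Junb did not pass without normal section 2 (-0.64). Myc, Klf6 and Fosl1 rose, Myc from 6.28 and 7.15 to 45.3 and 32.9 and Fosl1 from no count to 24.7 and 15.3, at least 10.7-fold higher. Fos was at 47.7 and 65.7 against 8.23 and 42.7 and did not pass (edgeR adjusted p = 0.090).

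Basement membrane and interstitial matrix genes differed in direction. Of 16, 15 were tested, 5 were higher and 3 lower. Col1a1, Sparc and Tnc were higher, Sparc not without normal section 2 (0.91) or ischemic section 1 (0.62). The collagens Col4a1 and Col4a2 of basement membranes rose from 92.9 and 140 to 617 and 426 and from 66.5 and 91.5 to 432 and 277 normalized CPM, a log2 fold change of 2.17 ± 0.27 for both. The proteoglycan Dcn (decorin) fell from 242 and 359 to 21.6 and 20.8 (-3.81 ± 0.29, edgeR adjusted p = 5.8e-07), and Lum and Postn fell as well, while Col1a2 was at 185 and 274 against 235 and 222. With spots chosen by the 8 other genes Col1a2 passed as higher (0.90) and 9 of 13 genes were higher and 1 lower, whereas 3 and 3 of 15 were in the largest groups.

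Of 15 interferon-stimulated genes, all tested, 6 were lower and 2 higher, with a median of -0.70. Over all genes tested, 13.1% were lower and 8.66% higher. The beta chain of class I molecules B2m fell from 677 and 532 to 291 and 306 normalized CPM, and H2-K1 and H2-D1 fell with it, as did Gbp2 and Psmb8. Ifitm3 and Oasl2 rose. Without normal section 1, 2 of 15 were lower and 1 higher. B2m did not pass without ischemic section 1 (-0.97), H2-K1 not without normal section 1 (-0.62), ischemic section 1 (-0.80) or 2 (-0.82), and Ifitm3 not without ischemic section 1 (0.71) or 2 (0.95).

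Of 21 glycolysis and hypoxia genes, 16 were tested, 4 were higher and 2 lower, and Aldoa, listed under 2 identifiers, was left out of the count. The glucose transporter Slc2a1 (GLUT1) rose from 52.7 and 50.02 to 219 and 130 normalized CPM, and the glycolytic enzymes Hk1, Pfkp and Eno1 rose, Pfkp from 35.2 and 51.5 to 137 and 138. Pfkfb3 and Ndrg1 fell. Gapdh and Pkm, the most abundant of the genes counted, did not pass, with log2 fold changes of 0.34 ± 0.27 and 0.69 ± 0.25, although Pkm did without normal section 1 (0.87).

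Of the 13 genes of the respiratory chain encoded in mitochondria, 12 were tested and 0 passed by edgeR or by DESeq2, also 0 of them with an unadjusted p under 0.05 by edgeR, and the median was -0.26. The cytochrome oxidase gene mt-Co1 was at 5373 and 3734 in the normal and 5723 and 5601 normalized CPM in the ischemic members. With 10% of spots 6 of the 12 passed as lower, with a median of -0.63, and 1 passed as lower without normal section 2, whereas mt-Co1 was higher without normal section 1 (0.60). Only 6 of 16 cell cycle genes passed the filter on low counts, of which Ccnd1 and Mcm6 were higher, Ccnd1 going from 38.9 and 28.6 to 84.4 and 73.4 normalized CPM. Neither passed without normal section 2 (1.02 and 1.34), and DESeq2 called 0 of the 6, but 9 of 11 genes were higher with 10% of spots and 6 of 10 with the score without Slc14a2.

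Whether the ischemic difference in member spots differed from that in the rest of the same section was tested by the interaction of both, in 1 edgeR model of 8 sums with the section as a block. Of 15391 genes, 1719 (11.2%) passed, 820 (5.33%) with a larger and 899 (5.84%) with a smaller log2 fold change in the members. When library sizes alone were used for scaling, the median of all genes moved from -0.03 to -0.31 and the split became 455 and 1609. Against thick ascending limb spots in place of the rest, chosen outside the members by Slc12a1 and Umod, 612 genes passed. The interaction calls numbered 946 without normal section 1 and 835 without ischemic section 1, 1541 with the largest connected groups and 1202 with spots chosen by the 8 other genes.

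The 5 largest positive interactions with a mean of at least 50 CPM in a kind of sum were Fam107a, Slc12a1, Kcnj1, Gpx6 and Ppp1r1b. Slc12a1, the sodium-potassium-chloride cotransporter NKCC2 of the thick ascending limb, stood at 55.2 and 54.3 in the normal and 207 and 112 normalized CPM in the ischemic members (1.54 ± 0.29), but fell by 3.36 ± 0.16 on the log2 scale in the other spots, an interaction of 4.93 ± 0.26 (edgeR adjusted p = 6.4e-16). Its rise moved with those of the thick limb markers Umod and Ptger3, but not with Cldn10, which did not rise. With spots chosen by the 8 other genes Slc12a1 fell by 2.36 on the log2 scale in the members. Fam107a and Ppp1r1b did not pass in the members themselves, with log2 fold changes of 0.98 ± 0.49 and 0.12 ± 0.48, and fell by 4.08 and 4.26 on the log2 scale elsewhere. Gpx6, of the glutathione peroxidase family, passed narrowly in the members (1.34 ± 0.45, edgeR adjusted p = 0.046), and not without any 1 of normal section 1 (1.33), normal section 2 (1.35) or ischemic section 1 (0.72). The 5 largest negative interactions were Actg2, Ccl8, Krt20, Cfd and Slpi. Slpi, a secreted protease inhibitor, was at 23.9 and 0 in the normal and 13.4 and 9.86 in the ischemic members, and rose by 7.90 ± 0.17 in the other spots, but its interaction of -7.89 became 2.38 without normal section 1, which held all its normal counts. Actg2, Ccl8 and Cfd had no count in the ischemic members, so that their fitted interactions depend on the prior count, and the calls of all 3 were lost with 2.5% of spots, against thick ascending limb spots and with spots chosen by the 8 other genes. Those of Ccl8 and Cfd were also lost without ischemic section 1 (-9.16 and -8.36) or 2 (-8.80 and -8.36).

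By gene list, the interaction was in 1 direction for several groups. Over all genes tested, 5.33% had a larger and 5.84% a smaller log2 fold change in the members. Of the 21 tubular injury genes, 11 had a smaller log2 fold change in the members than in the other spots, where their median was 3.28. Besides Krt18, Krt20 and S100a6 these included Krt8, at 0.09 in the members (edgeR adjusted p = 0.87) and 2.38 ± 0.14 elsewhere, and the cell cycle inhibitor Cdkn1a, at 0.76 (edgeR adjusted p = 0.14) and 3.28 ± 0.10. Of the 16 matrix genes 8, and of the 16 immediate early genes 6, also had a smaller change in the members. Of the 13 respiratory chain genes encoded in mitochondria, 9 had a larger log2 fold change in the members, where none passed by itself, than in the other spots, where their median was -0.69. Transport genes of the collecting duct split into 7 larger and 3 smaller of 14, and heat shock genes into 3 and 6 of 14.

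Of the genes of the 15 lists, 13 passed in the members and in the rest with opposite signs, all with an interaction past the threshold. Cryab, Hspb1, Hspa1b, Krt18, S100a6, Junb, Btg2, C3, Postn and Elf5 fell in the members and rose elsewhere, with interactions from -5.47 ± 0.17 for Cryab to -2.10 ± 0.22 for Junb. The interaction of Elf5 did not pass with thinned counts (-1.04), nor that of Btg2 against thick ascending limb spots (-1.02). The falls in the members did not pass for C3 with spots chosen by the 8 other genes (-1.48) or for Btg2 with 2.5% of spots (-0.92). Scnn1a, Kcnj1 and Ptger3 rose in the members and fell elsewhere. Cryab kept its fall with an adjusted p under the threshold under every alternative run, at log2 fold changes of -3.74 to -2.43. Lcn2 and Spp1 had a smaller log2 fold change in the members than elsewhere, with interactions of -1.03 ± 0.22 and -1.50 ± 0.19, while for Clu the interaction of 0.09 ± 0.19 did not pass. The ischemic levels of Lcn2 and Spp1 were not lower in the members. In the joint fit Lcn2 averaged 43.1 (normal) and 9784 (ischemic) normalized CPM in the members, against 7.22 and 3228 in the other spots. Spp1 averaged 3573 and 41558 against 1199 and 38763.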

How the data were processed

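Spatial transcriptomes were measured on 10x Visium capture areas of 4 mouse kidney sections. The authors made the deposited files with Space Ranger 1.3.0, per the file headers, against mm10, per the submitters' processing notes. The deposited matrices of the authors hold raw UMI counts per gene and spot, made by Space Ranger with no normalization. Only spots under tissue were used, and no spot was removed for depth. No doublet caller was run, because a spot can hold several cells.

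Member counts were summed per section, filtered with filterByExpr, scaled by TMM and tested with the quasi-likelihood test of edgeR 4.0.16 in R 4.3.3 (ischemic against normal, 2 against 2 sections, both conditions sharing 1 estimate of the spread). The interaction model held the sums of members and of all other spots, with section as a block. P-values were adjusted by Benjamini-Hochberg over all genes tested, with a threshold of 0.05. The SE of an edgeR log2 fold change was derived as its absolute value over the square root of the F statistic. This statistic uses a spread moderated across genes, so the SE is not that of the section values alone. An exact permutation test of 2 against 2 sections cannot pass this threshold, so marker list sums and other single values per section are given with no test. DESeq2 1.42.0 was run as an alternative, as were other scalings, filters, shares of spots, scores, thinned counts and left-out sections (the closing section gives their effect). The script was tested on simulated data, in which 138 of 200 changed genes were recovered with 5 false calls for the members (9064 genes) and 76 of 200 with 4 false calls for the interaction (14741 genes). The simulated counts had the same spread for every gene and the same mean profile in all sums. These false calls are therefore no error rate for the real comparisons.

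Genes were named by rule: the selection genes, Havcr1 and Lcn2, the 10 largest rises and falls, the 5 largest interactions each way, up to 3 most abundant genes of each gene list, and of each marker list its sum. The most abundant marker genes were Fxyd4, Slc34a1, Atp11a, Umod, Slc12a3, Atp6v1g3, Psca, Podxl, Acta2, Plvap, Col1a2, Cfd, Hbb-bs, S100a8, Lyz2, Trac and Cd79b. Other genes named from a list were those that passed the test, or were chosen after their values were seen. The members and lists were chosen with earlier results of these data known. Bounds for genes without a count allow 3 counts over both sections of a condition, and these bounds and intervals cover counting error only. Of 32285 gene identifiers, 32235 (99.8%) were found in GENCODE vM21. Images and spot positions in pixels were not used here. Some genes that these rules select or these counts include are not reported here by name.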

Additional observations from a re-analysis of the deposited data

Results flagged for a closer look

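Each value here was selected because the ischemic difference in the member spots differed from that in the other spots of the same sections, by the interaction test of edgeR (log2 scale, positive where the difference was larger in the members). In all, 1719 genes passed. The 5 largest each way were Fam107a (5.16), Slc12a1 (4.93), Kcnj1 (4.83), Gpx6 (4.58) and Ppp1r1b (4.45), and Actg2 (-10.56), Ccl8 (-8.92), Krt20 (-8.87), Cfd (-8.28) and Slpi (-7.89). Actg2, Ccl8 and Cfd had no count in the ischemic members, so that these fitted values depend on the prior count and are no bounds. Among genes with opposite signs in members and rest were Scnn1a (2.54), Ptger3 (2.90), Elf5 (-3.82), Hspa1b (-2.56), Hspb1 (-3.68), Cryab (-5.47), Krt18 (-3.01), S100a6 (-3.69), Junb (-2.10), Btg2 (-2.17), C3 (-3.90) and Postn (-4.07).

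Of the largest rises and falls in the members, Mt2 (1.97), Mt1 (2.03), Slc34a2 (3.24) and Eprn (3.20) differed more there, and Lcn2 (-1.03), Cidec (-6.01) and Car3 (-2.01) had negative interactions. Transport genes with an interaction were Fxyd4 (-1.49), Atp1b1 (1.20), Aqp1 (2.32) and the claudin Cldn4 (-2.85), and the factors Elf3 (-1.25) and Ehf (-1.04) had one as well. Further stress and signalling genes were Sgk1 (-1.39), Hsph1 (-1.24), Ptges (-2.53), Ptger1 (-1.41), Hspa8 (0.59), Spp1 (-1.50), Ier2 (-1.73), Ier3 (-0.73), Timp1 (-1.49) and Fth1 (0.50). The mitochondrial genes mt-Co3 (0.55), mt-Co1 (0.89) and mt-Atp6 (0.59) had positive interactions, and the collagen Col1a2 (-1.01) a negative one. Thick ascending limb RNA in the ischemic members and urothelial, adipocyte and smooth muscle RNA in the normal members moved with these values, and their part in them was not tested.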

How the results depend on the processing

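The count of 2102 genes in the members became 1012 with DESeq2 (320 higher, 692 lower), 688 with 2.5% of spots, 3774 with 10% of spots, and 1071 (without normal section 1) to 1971 with each section left out. The 1719 interaction calls became 870 with DESeq2, 812 with 2.5% of spots, 815 with thinned counts, 612 against thick ascending limb spots, and 835 to 1665 with each section left out. The cause was not tested. With library size alone the interaction calls split into 455 higher and 1609 lower (820 and 899 with TMM), and the median of all genes moved from -0.03 to -0.31.

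Single genes changed sign in the members under these choices. With 10% of spots the log2 fold changes were Fam107a -1.72, Slc12a1 -2.73, Kcnj1 -0.56, Gpx6 -2.60, Ppp1r1b -3.24 and Ptger3 -0.73. With spots chosen by the 8 other genes they were Slc12a1 -2.36, Kcnj1 -0.16, Gpx6 -2.32, Ppp1r1b -3.28, Ptger3 -0.29 and Col1a2 0.90. Without Aqp2 in the score they were Slc12a1 -1.12, Gpx6 -0.92, Ppp1r1b -1.55 and Col1a2 0.67, without Akr1b3 Gpx6 -0.24, and without neighbours Slc12a1 -0.44 and Gpx6 -0.10. Interactions that turned were Ptger3 (-0.32 with 10% of spots), Cfd (0.42 with the 8 other genes) and Slpi (1.91 with 2.5% of spots, and -9.04 to 2.38 with each section left out). Lcn2 stayed between 7.56 and 8.44 over the 21 settings run.

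With the replicate number as a block, 2165 genes passed in the members and 1868 interactions. The deviations of sections that share a number correlated at -0.017 over genes. With 2 sections per condition the other pairing gives the same value with the opposite sign. The correlation therefore cannot decide whether the numbers pair the sections. Leaving out members with at least 10 pooled urothelial counts left 2 and 6 normal spots, under the minimum of 10 spots set for a fit, and this alternative was not run. Depth limits genes under the filter on low counts.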
